A study of Mus musculus with 10 samples.

Results

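The genes described here are 37 genes of T cells, natural killer (NK) cells and cytotoxic effector functions, listed by name and read from 10 microarrays of mouse salivary gland cells. Each gene was represented by its brightest probe set among those that name 1 gene symbol. Such a probe set existed for 34 of the 37 genes, out of 22180 genes with one in the whole data set, and Cd247, Lck and Tcf7 are not analysed here. Of the 34, 33 passed the filter on low values and were tested, among 18826 genes tested in all. Ifng, the gene of interferon gamma, exceeded the 25th percentile of the array on 2 arrays, and its values are given without a test.

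All 10 arrays held RNA of female NOD/ShiLtJ mice, an inbred strain in which T cells attack the insulin-producing islets and in which lymphocytes also gather in the salivary glands. The diabetic group was 4 mice with type 1 diabetes at 21 weeks of age. The nondiabetic groups were 3 mice at 21 weeks and 3 mice at 6 weeks. No transgene, deletion or drug is named for any group, and strain and sex were shared by every array. Cells were freed from the minced salivary tissue with dispase II and collagenase IV, passed through a filter, and the total RNA of the mixed cells was hybridised, so no lymphocytes were sorted. The labels number the mice within each group, so each array was read as 1 mouse. Which salivary gland was taken is not given in the sources used here, nor whether it was the same in every group, so a difference in gland and a difference between the groups cannot be told apart.

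A T cell recognises antigen with a receptor whose variable chains are carried by the CD3 chains, and these pass the signal through the kinases LCK and ZAP70 to the adaptor LAT. The coreceptors CD4 and CD8 mark helper and cytotoxic T cells. Cytotoxic T cells and NK cells kill with perforin and granzymes or through FAS ligand, and checkpoint receptors such as CTLA4 and PD-1 restrain T cells. In the salivary glands of NOD mice such cells lie in clusters around ducts together with B cells.

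The tissue label was checked first. Aqp5, the water channel of acinar cells, lay between 8.59 and 9.23 and Epcam, an epithelial adhesion gene, between 7.66 and 8.46 on the log2 scale over all 10 arrays. The array's own 25th percentile, the level used here as a mark for dim probe sets, lay between 2.58 and 2.70. Of the 34 genes, 29 exceeded it on all 10 arrays and 5 on fewer. The array medians over all probe sets lay between 3.53 and 3.69, and Klrk1, Gzma, Fasl and Eomes lay below them on every array. Exceeding the 25th percentile is thus no proof of expression. Epithelial gene lists differed between the groups. The mean of 11 serous acinar genes was 10.30 to 10.57 in the diabetic arrays, 7.0 to 8.34 in the nondiabetic 21-week arrays and 7.41 to 9.49 at 6 weeks. Amy1, Smr3a, Dnase1, Chia1, Cst10 and Bpifa2 carried it and were called higher with diabetes, while 3 of the 11 genes were lower in the diabetic mice and Aqp5 spanned less than 1 log2 unit over all arrays. The call of Bpifa2 was lost without any 1 diabetic array or nondiabetic 21-week array 1 or 2, at limma adjusted p up to 0.0895. The mean of 7 granular duct genes was 5.70 to 7.80, 10.22 to 11.02 and 9.17 to 9.61 in the same order. The part of these differences in the lymphocyte values was not tested. In RNA of mixed cells, fewer cells of a type and less RNA per cell cannot be told apart.

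The arrays that stood apart have to be named before the values. Diabetic array 4 was the highest of its group for 26 of the 34 genes, with a median of 0.84 log2 units above the mean of the other 3 diabetic arrays, where the median over all genes tested was 0.00. It exceeded them by at least 1 log2 unit for 7 of the genes, and 1.22% of all genes did so. Array 3 of the nondiabetic 21-week group was the lowest of its group for 26 of the 34 genes, with a median difference of −0.40 from the mean of the other 2, where the median over all genes tested was −0.16. Its correlation with the other arrays was 0.901 to 0.93. Array 1 of the same group was the highest of its group for 24 of the 34 genes. The median over all probe sets was 3.68, 3.69 and 3.53 on arrays 1, 2 and 3 of that group, and such ranks were not counted over all genes. Beside the differences that the arrays standing apart moved most, the value without them is given. Diabetic array 4 and nondiabetic 21-week array 3 were picked out on these same genes. Adjusted p from fits without either of them are therefore descriptive only.

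**Figure D1:**
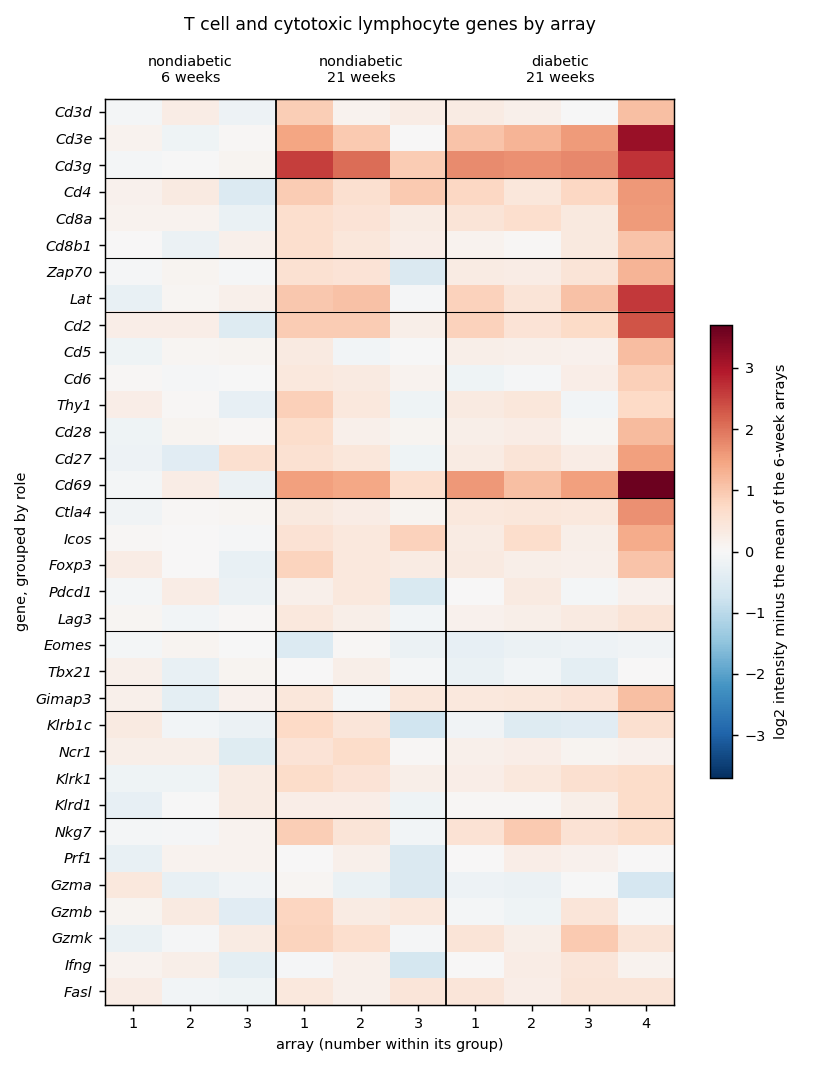
Each row is a gene, grouped by role, and each column is an array; the colour is the log2 intensity minus the gene's mean over the 3 arrays of 6-week mice. Diabetic array 4 stands above the other diabetic arrays in most T cell rows and not in those of Gzma and Prf1. On array 4 Gzma lay below the array's 25th percentile.

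Of the CD3 genes Cd3g was called between groups and its neighbours were not, so the promoters of the 3 measured CD3 genes are shown, with that of Prf1 (perforin) for the cytotoxic effectors. Cd3g and Cd3d lie head to head, with start sites 1355 bases apart, and the start of Cd3e lies 29180 bases from that of Cd3g, all on chromosome 9. The sequences are from the RefSeq promoter table of build GRCm38.p6, each 300 bases long from 250 before the start of the gene to 50 after it, read 5′ to 3′ on the gene's strand. Capitals mark matches, on either strand, to the ETS core CAGGAA, the RUNX letters TGTGGT, the GATA letters AGATAA and the E-box CAGCTG. The ranges are chr9:44980382-44980681 on the minus strand for Cd3g, chr9:44981536-44981835 on the plus strand for Cd3d, chr9:45009562-45009861 on the minus strand for Cd3e and chr10:61297586-61297885 on the plus strand for Prf1.
Cd3g: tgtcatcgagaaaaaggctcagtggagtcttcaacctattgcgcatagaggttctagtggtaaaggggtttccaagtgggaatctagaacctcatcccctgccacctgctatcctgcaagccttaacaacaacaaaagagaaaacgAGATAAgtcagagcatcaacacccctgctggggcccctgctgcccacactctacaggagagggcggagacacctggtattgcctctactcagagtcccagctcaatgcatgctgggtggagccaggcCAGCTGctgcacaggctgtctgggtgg
Cd3d: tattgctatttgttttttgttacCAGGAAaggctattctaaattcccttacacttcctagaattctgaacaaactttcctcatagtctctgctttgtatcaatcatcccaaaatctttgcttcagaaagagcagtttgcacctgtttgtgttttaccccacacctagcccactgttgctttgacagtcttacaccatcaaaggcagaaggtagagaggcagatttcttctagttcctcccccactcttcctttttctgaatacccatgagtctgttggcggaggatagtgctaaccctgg
Cd3e: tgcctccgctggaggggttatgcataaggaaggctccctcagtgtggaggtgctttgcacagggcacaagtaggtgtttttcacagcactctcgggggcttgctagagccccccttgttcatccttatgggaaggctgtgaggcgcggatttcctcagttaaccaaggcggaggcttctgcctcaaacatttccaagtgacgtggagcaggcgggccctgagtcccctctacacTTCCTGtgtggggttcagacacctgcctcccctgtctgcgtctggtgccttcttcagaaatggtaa
Prf1: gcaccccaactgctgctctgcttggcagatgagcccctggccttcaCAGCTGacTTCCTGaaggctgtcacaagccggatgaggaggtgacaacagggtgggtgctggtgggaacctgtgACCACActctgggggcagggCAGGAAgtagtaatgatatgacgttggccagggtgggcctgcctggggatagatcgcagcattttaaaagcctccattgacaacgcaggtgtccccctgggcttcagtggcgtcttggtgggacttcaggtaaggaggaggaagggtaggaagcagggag

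Promoters of 27 of the 37 listed genes stood in that table. The longer ETS letters CAGGAAGT occurred in 6 of them (Cd247, Cd3e, Fasl, Lck, Prf1 and Tbx21), and 3.33% of all 32851 promoters held them. The 6-letter core CAGGAA, contained in the longer form, occurred in 14 of the 27 and in 30.6% of all promoters, and GGAAGT, also contained in it, in 12 (23.8%). TGTGGT occurred in 10 (16.8%), TGTGGTTT, which contains it, in 1 (1.78%), and CAGCTG in 7 (16.3%). AGATAA occurred in 2 (11.2%), GGAAAA in 8 (23.4%), TTTCCA in 9 (21.4%) and ACAGGA, which overlaps CAGGAA, in 10 (22.1%). TATAAA occurred in 4 (13.6%), CACGTG in 2 (7.15%) and TGACGTCA in 1 (1.79%). Both strands were searched for all 13 motifs. These are matches of letters in a window and show no binding.

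Cd3g, which encodes the gamma chain of CD3, was the 1 gene of the 33 tested that passed the test in any comparison with all 10 arrays. Its log2 intensities were 3.47, 3.52 and 3.64 at 6 weeks. They were 6.10, 5.61 and 4.47 in the nondiabetic mice at 21 weeks and 5.29, 5.23, 5.33 and 6.22 in the diabetic mice. Every 21-week array, diabetic or not, lay above every 6-week array, and the groups of 21-week mice overlapped. Cd3g rose 3.93-fold from the 6-week to the diabetic mice (log2 difference 1.97 ± 0.33, SE; means 5.52 ± 0.47, SD, n = 4, and 3.54 ± 0.09, n = 3; limma adjusted p = 0.0122). The call was lost without any 1 of the 6-week arrays, at limma adjusted p = 0.0545, 0.0604 and 0.0628 without arrays 1, 2 and 3, while the log2 difference stayed between 1.74 and 2.07 over all arrays left out in turn. Between the nondiabetic mice of 21 and 6 weeks the log2 difference was 1.85 ± 0.35, or 3.61-fold (limma adjusted p = 0.16). Without nondiabetic 21-week array 3 it was 2.32 with limma adjusted p = 0.012, and with any other single array left out it did not pass. Between diabetic and nondiabetic mice of 21 weeks it was 0.12 ± 0.33, with a 95% interval of −0.59 to 0.83 (limma adjusted p = 0.891).

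Cd3e, the epsilon chain, was measured at 4.38, 4.09 and 4.29 at 6 weeks. The nondiabetic 21-week arrays gave 5.71, 5.23 and 4.27, and the diabetic arrays 5.32, 5.52, 5.84 and 7.45. The diabetic arrays lay above all 6-week arrays, and nondiabetic array 3 lay among the 6-week arrays. The diabetic mice differed from the 6-week mice by 1.78 ± 0.44, a 3.44-fold difference that did not pass (limma adjusted p = 0.0713). Without nondiabetic 21-week array 3 the same value of 1.78 had a limma adjusted p of 0.0441, and with any other single array left out it did not pass. Nondiabetic array 3 is in neither group compared here and enters only through the spread shared by all groups. Against nondiabetic mice of the same age the difference was 0.96 ± 0.44 (limma adjusted p = 0.312), and without diabetic array 4 it was 0.49.

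Cd3d, the delta chain, lay at 3.54, 3.90 and 3.44 at 6 weeks, at 4.55, 3.77 and 3.89 in nondiabetic mice of 21 weeks and at 3.93, 3.82, 3.62 and 4.74 in diabetic mice. All 3 groups overlapped. The difference between diabetic and 6-week mice was 0.41 ± 0.26, with a 95% interval of −0.15 to 0.96 (limma adjusted p = 0.496) and 0.17 without diabetic array 4, so the neighbouring genes Cd3g and Cd3d gave different sizes of difference on this array. A difference between the 2 genes was not tested.

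The coreceptor Cd4 lay at 4.28, 4.46 and 3.63 at 6 weeks, at 5.05, 4.71 and 5.08 in the nondiabetic and at 4.88, 4.53, 4.88 and 5.74 in the diabetic 21-week mice. All 7 arrays of 21 weeks lay above the 3 arrays of 6 weeks. The log2 difference was 0.83 ± 0.28 between nondiabetic mice of 21 and 6 weeks (limma adjusted p = 0.577) and 0.88 ± 0.26 between diabetic and 6-week mice (limma adjusted p = 0.126). Cd8a, a chain of the coreceptor of cytotoxic T cells, lay at 3.44, 3.43 and 3.05, then 3.94, 3.80 and 3.62, then 3.77, 3.93, 3.67 and 4.89 in the same order of groups. Here too no 21-week array reached down into the 6-week range, and diabetic array 4 was about 1.09 above the mean of the other diabetic arrays. The difference of Cd8a was 0.48 ± 0.26 with age (limma adjusted p = 0.711) and 0.76 ± 0.25 between diabetic and 6-week mice (limma adjusted p = 0.164), the latter 0.48 without diabetic array 4. Cd8b1, the partner chain, lay at 3.85, 3.61 and 4.01, then 4.44, 4.23 and 4.06, then 3.96, 3.87, 4.19 and 4.87. Its diabetic arrays overlapped both other groups, and the difference from the 6-week mice was 0.40 ± 0.21 (limma adjusted p = 0.418), or 0.18 without diabetic array 4.

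The measured genes that carry the receptor signal were Zap70 and Lat. Lat, the adaptor at the membrane, lay at 3.21, 3.57 and 3.68 at 6 weeks, at 4.49, 4.57 and 3.44 in nondiabetic and at 4.33, 3.97, 4.56 and 6.10 in diabetic mice of 21 weeks. The diabetic arrays were all above the 6-week arrays, with array 4 higher by 1.82 than the mean of the others. The difference between diabetic and 6-week mice was 1.25 ± 0.42 (2.38-fold, limma adjusted p = 0.176), or 0.80 without array 4. Zap70, the kinase that binds phosphorylated CD3 chains, had a difference of 0.58 ± 0.28 in the same comparison (limma adjusted p = 0.35), or 0.36 without that array.

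Among the surface genes Cd69, induced early when lymphocytes are activated and retained on tissue-resident T cells, differed most. Cd69 lay at 3.67, 4.02 and 3.53 at 6 weeks, at 5.27, 5.16 and 4.37 in nondiabetic and at 5.34, 4.86, 5.25 and 7.38 in diabetic mice of 21 weeks. The 6-week arrays were lower than every 21-week array. The log2 difference was 1.96 ± 0.47 between diabetic and 6-week mice, a 3.9-fold difference that did not pass (limma adjusted p = 0.061). Without diabetic array 4 it was smaller, 1.41, with a limma adjusted p of 0.0139, and with any other single array left out it did not pass. With age alone the difference was 1.19 ± 0.50 (limma adjusted p = 0.635), and between diabetic and nondiabetic mice of 21 weeks it was 0.77 ± 0.47 (limma adjusted p = 0.444), or 0.22 without diabetic array 4 and 0.49 without nondiabetic array 3.

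The other surface genes had smaller differences. Cd2, an adhesion receptor of T and NK cells, lay at 3.03, 3.04 and 2.30 at 6 weeks, at 3.73, 3.73 and 3.01 in nondiabetic and at 3.64, 3.30, 3.50 and 5.12 in diabetic 21-week mice, and differed by 1.10 ± 0.37 between diabetic and 6-week mice (limma adjusted p = 0.181). The difference of Cd2 was 0.69 without diabetic array 4. Cd5, a scavenger receptor family protein that dampens receptor signals, lay at 4.21, 4.18, 4.15 and 5.14 in the diabetic arrays, with array 4 alone far above the rest. Cd27, a costimulatory receptor of the TNF receptor family, showed the same pattern, at 3.71, 3.88, 3.68 and 4.94. The log2 differences of Cd5, Cd6, Cd27, Cd28 and Thy1 between diabetic and 6-week mice were 0.42, 0.23, 0.63, 0.43 and 0.35, and none of them passed (0 of 7 surface genes). They were, without diabetic array 4, 0.18, 0.01, 0.34, 0.19 and 0.22 in the same order. Gimap3, a GTPase of lymphocyte survival, lay at 4.50, 4.53, 4.60 and 5.21 in the diabetic mice and at 4.29, 3.75 and 4.28 at 6 weeks, a difference of 0.60 ± 0.20 (limma adjusted p = 0.181).

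**Figure D2:**
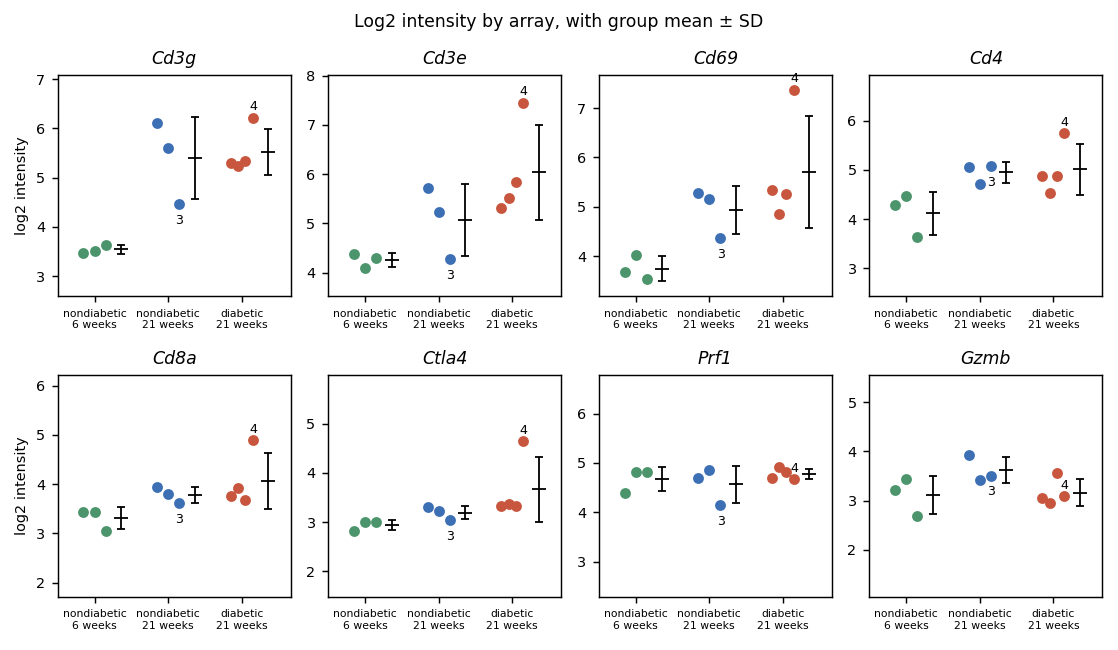
Each point is 1 array, with log2 intensity on the vertical axis and the 3 groups on the horizontal axis; the bar beside each group is its mean ± SD, and the digits mark diabetic array 4 and nondiabetic 21-week array 3. All panels span the same range of log2 units. In Cd3g the 6-week arrays lie between 3.47 and 3.64, below all others, while in Prf1 the 3 groups overlap.

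Of the 5 checkpoint and regulatory genes, none passed in any comparison. Ctla4, an inhibitory receptor of activated and regulatory T cells, lay at 2.83, 3.0 and 3.01 at 6 weeks, at 3.30, 3.23 and 3.04 in nondiabetic and at 3.33, 3.36, 3.33 and 4.65 in diabetic 21-week mice. The groups were stacked without overlap in this order, and it was the 1 gene of the 34 whose diabetic arrays all lay above the nondiabetic arrays of the same age. Its difference between those groups was 0.48 ± 0.27 (limma adjusted p = 0.415) and 0.15 without diabetic array 4. Foxp3, the transcription factor of regulatory T cells, lay at 3.51, 3.24 and 2.96, then 4.05, 3.63 and 3.54, then 3.56, 3.45, 3.43 and 4.30. Its age difference was 0.51 ± 0.23 (limma adjusted p = 0.667), and its difference with diabetes was −0.06 ± 0.22 (limma adjusted p = 0.928).

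Icos, a costimulatory receptor of helper T cells, lay at 3.75, 3.74 and 3.67 at 6 weeks, at 4.25, 4.10 and 4.57 in nondiabetic and at 4.01, 4.36, 3.95 and 5.08 in diabetic mice of 21 weeks. No 21-week array overlapped the 6-week arrays (differences of 0.59 ± 0.25 with age and 0.63 ± 0.23 between diabetic and 6-week mice; limma adjusted p = 0.635 and 0.218). The second was 0.39 without diabetic array 4. Pdcd1, the gene of PD-1, lay at 3.90, 4.24 and 3.76, then 4.16, 4.35 and 3.41, then 3.97, 4.31, 3.90 and 4.12, with all groups overlapping. Lag3, an inhibitory receptor that binds MHC class II, lay at 4.23, 4.04 and 4.19, then 4.53, 4.37 and 4.04, then 4.31, 4.36, 4.48 and 4.62. The diabetic arrays of Lag3 lay above the 6-week arrays by 0.29 ± 0.14 (limma adjusted p = 0.363).

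None of the 4 NK cell receptor genes passed in any comparison. Klrb1c (NK1.1) exceeded the 25th percentile on 4 arrays only, and Klrk1 (NKG2D) on 8. Klrk1 lay at 2.63, 2.63 and 3.07 at 6 weeks, at 3.46, 3.29 and 3.0 in nondiabetic and at 3.02, 3.18, 3.36 and 3.45 in diabetic 21-week mice, with differences from 6 weeks of 0.47 ± 0.17 and 0.47 ± 0.16 (limma adjusted p = 0.619 and 0.186). Ncr1 (NKp46) had diabetic values of 3.61, 3.69, 3.52 and 3.60, inside the range of 3.48 to 4.10 of nondiabetic mice of the same age. Klrd1 (CD94), which pairs with NKG2 receptors, had differences of 0.14, 0.11 and 0.25 with diabetes, with age and between diabetic and 6-week mice, the last 0.11 without diabetic array 4.

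Among the cytotoxic effectors Nkg7, a granule membrane protein, had the largest difference from the 6-week mice. It lay at 4.37, 4.42 and 4.57 at 6 weeks, at 5.37, 4.94 and 4.36 in nondiabetic and at 4.98, 5.41, 5.0 and 5.12 in diabetic mice of 21 weeks. The diabetic arrays were above the 6-week arrays, and array 4 lay within its group. The difference was 0.67 ± 0.20 (limma adjusted p = 0.132). Without nondiabetic 21-week array 3, which is in neither group compared, the same 0.67 had a limma adjusted p of 0.039. With any other single array left out it did not pass.

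Perforin and the granzymes were not called in any comparison. Prf1 lay at 4.40, 4.81 and 4.81 at 6 weeks, at 4.70, 4.85 and 4.14 in nondiabetic and at 4.70, 4.91, 4.82 and 4.68 in diabetic 21-week mice, and the 95% interval of its difference between diabetic and 6-week mice was −0.27 to 0.48. Gzma lay at 3.55, 2.90 and 3.04, then 3.24, 2.93 and 2.64, then 2.97, 2.94, 3.16 and 2.55, so that diabetic array 4, highest for most T cell genes, was the lowest of its group here. Gzmb lay at 3.22, 3.44 and 2.69, then 3.92, 3.42 and 3.51, then 3.05, 2.95, 3.57 and 3.09. The diabetic arrays of Gzmb were lower than the nondiabetic ones by 0.46 ± 0.20 (log2 difference −0.46, interval −0.89 to −0.02), which did not pass (limma adjusted p = 0.298), and the arrays overlapped. Gzmk, a granzyme of memory T cells, lay at 3.13, 3.32 and 3.66, then 4.20, 4.0 and 3.32, then 3.85, 3.59, 4.35 and 3.86, a difference of 0.54 ± 0.23 between diabetic and 6-week mice (limma adjusted p = 0.278).

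Fasl, the ligand that triggers death through FAS, lay at 3.11, 2.71 and 2.65 at 6 weeks, at 3.21, 3.01 and 3.26 in nondiabetic and at 3.28, 3.06, 3.29 and 3.30 in diabetic mice of 21 weeks. Its difference from the 6-week mice was 0.41 ± 0.14 (limma adjusted p = 0.187), and 1 array of 6 weeks lay inside the diabetic range. Ifng lay between 1.72 and 2.81 over all arrays, near or below the dim mark. Tbx21 (T-bet) and Eomes, the transcription factors that direct cytotoxic and interferon gamma programmes, had differences of −0.18 ± 0.15 and −0.21 ± 0.14 between diabetic and 6-week mice (limma adjusted p = 0.622 and 0.511). Eomes lay at 3.32, 3.50 and 3.39 at 6 weeks and at 3.11, 3.19, 3.21 and 3.26 in diabetic mice, the 1 gene of the set whose diabetic arrays were all below the 6-week arrays.

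The comparison of diabetic with nondiabetic mice of 21 weeks gave 0 calls among the 33 tested genes (limma, adjusted p under 0.05), and 1.44% of all genes tested were called. At an unadjusted p under 0.05 there were 2, Cd3e and Gzmb, in opposite directions, and 15.8% of all genes. Of the 34 genes, 24 had a difference above 0 and 10 below, with a median of 0.11; over all genes tested 56% were above 0, with a median of 0.035. Without diabetic array 4 the counts were 17 and 17 with a median of 0.00, and without nondiabetic array 3 they were 18 and 16, also with 0.00. Without nondiabetic array 1 they were 30 and 4, with a median of 0.24. Without both diabetic array 4 and nondiabetic array 3, 8 were above 0 and 26 below, with a median of −0.16. The former was the highest and the latter the lowest of its group for 26 of the 34 genes. Leaving out both thus lowers the difference by construction, and no direction is read from that fit. In that fit, chosen after seeing the data, Klrb1c was called lower in the diabetic mice (−0.93, limma adjusted p = 0.0442). Klrb1c exceeded the 25th percentile on 4 of the 10 arrays: diabetic array 4, nondiabetic 21-week arrays 1 and 2 and 6-week array 1. The diabetic arrays kept in that fit, at 2.39, 2.05 and 2.12, all lay below that mark, so no weight is put on the call. The 1 gene without overlap between these groups, Ctla4, stands beside a share of 9.11% of all genes with higher diabetic arrays without overlap.

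The comparison of nondiabetic mice of 21 and 6 weeks gave 0 calls among the 33 genes with all arrays, where 0.0266% of all genes, 5 in number, were called. At an unadjusted p under 0.05 there were 8 genes, all higher at 21 weeks (Cd3g, Cd4, Cd69, Icos, Foxp3, Klrk1, Gzmb and Fasl), and 7.47% of all genes. The log2 difference was above 0 for 30 of the 34 genes and below 0 for Prf1, Gzma, Ifng and Eomes, while 38.2% of all genes tested were above 0. The median was 0.35, or 0.53 without nondiabetic 21-week array 3 and 0.20 without nondiabetic 21-week array 1, and −0.057 over all genes tested. The arrays did not overlap, with 21 weeks higher, in 9 genes, against 4.11% of all genes. Without nondiabetic array 3 alone Cd3g was called, and without both that array and diabetic array 4 the calls were Cd3g (2.32, limma adjusted p = 0.000245), Cd69 (1.47, adjusted p = 0.0154) and Cd3e (1.22, adjusted p = 0.0312). Both arrays were left out together after they were seen to stand apart on these genes. That tends to narrow the spread within groups, so the adjusted p of that fit are descriptive only.

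The comparison of diabetic 21-week with nondiabetic 6-week mice combines age and diabetes, and shares its samples with both others. Cd3g was the 1 call among 33 genes, where 1.44% of all genes were called and 0.903% were called higher. At an unadjusted p under 0.05 there were 14 genes, all higher in the diabetic mice, and 14.9% of all genes. The log2 difference was above 0 for 30 of the 34 and for 46% of all genes tested. The median was 0.43, or 0.24 without diabetic array 4, and −0.022 over all genes tested. The diabetic arrays lay wholly above the 6-week arrays for 14 genes, against 8.2% of all genes, and wholly below them for 1, Eomes, against 8.49%. Without diabetic array 4 and nondiabetic array 3 the calls numbered 5: Cd3g (1.74, limma adjusted p = 0.000346), Lat (0.80, adjusted p = 0.0353), Cd3e (1.31, limma adjusted p = 0.00312), Cd69 (1.41, adjusted p = 0.00183) and Nkg7 (0.68, adjusted p = 0.049). As above, this fit was chosen after seeing the data, and its adjusted p are descriptive only.

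**Figure D3:**
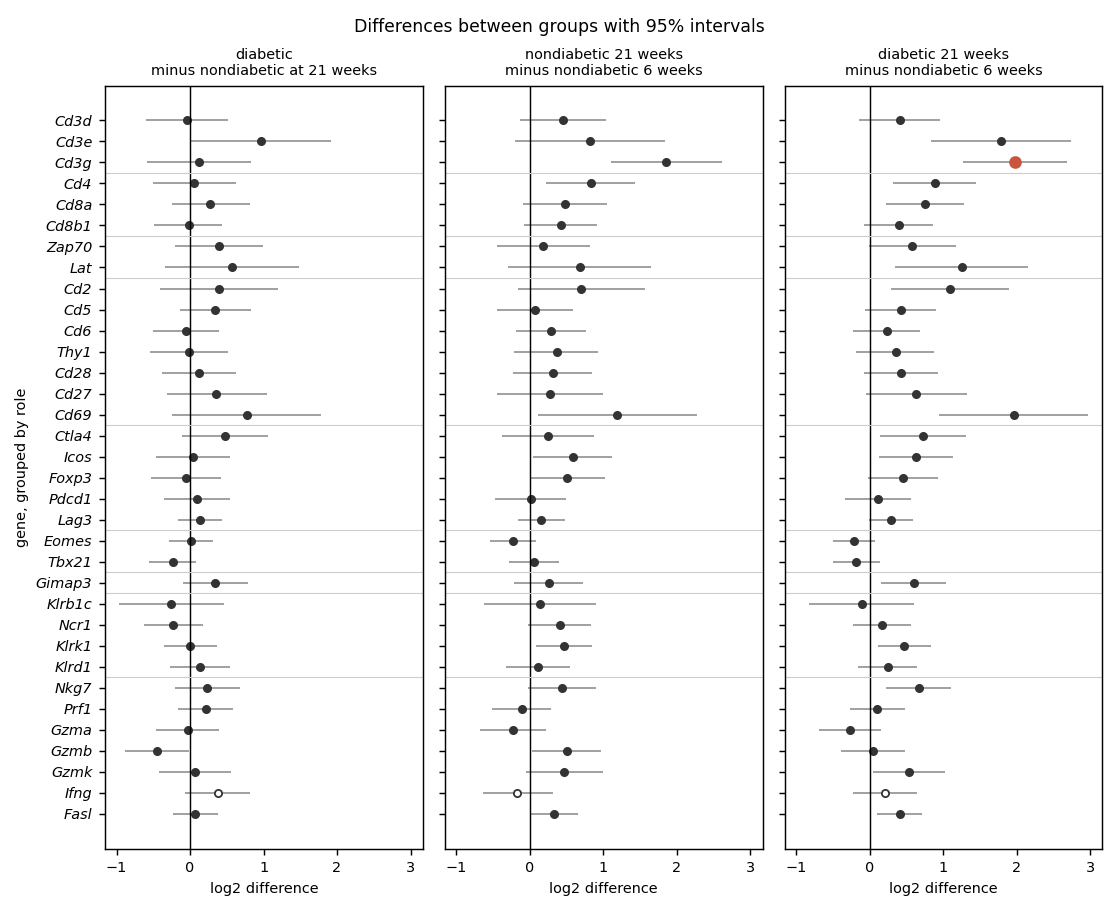
Points are log2 differences between group means and bars their 95% intervals, 1 row per gene and 1 panel per comparison; the red point is the gene called by limma and the open point is Ifng, which was not tested. The points scatter around 0 in the panel of diabetic against nondiabetic mice at 21 weeks and lie mostly to the right of it in the others, where 30 of 34 are above 0.

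By role, the 15 genes of CD3 chains, coreceptors, receptor signalling and T cell surface had median differences of 0.28 with diabetes, 0.45 with age and 0.63 between diabetic and 6-week mice, and all 15 were above 0 in the last 2. Without diabetic array 4 the first of these was −0.01 and the last 0.36. The 11 NK receptors and cytotoxic effectors had medians of 0.07, 0.34 and 0.21. Without nondiabetic 21-week array 3 the first was −0.12, with 4 genes above 0 and 7 below, and the second 0.55, and without array 1 of that group they were 0.12 and 0.19. The mean of the 15 T cell genes was 3.68, 3.74 and 3.64 at 6 weeks, 4.62, 4.35 and 3.88 in nondiabetic and 4.29, 4.22, 4.30 and 5.45 in diabetic 21-week mice. Every 21-week array was above every 6-week array. The mean of the 11 NK and cytotoxic genes was 3.33, 3.31 and 3.24, then 3.76, 3.62 and 3.14, then 3.44, 3.45, 3.61 and 3.58, where diabetic array 4 lay among the diabetic arrays and nondiabetic array 3 was the lowest of all. The parts of this mean differed: over the 4 NK receptors array 4 was at 3.59 and the other diabetic arrays at 3.12 to 3.18, and over the 7 cytotoxic effectors it was at 3.58 and the others at 3.60 to 3.86. Of these 7 effectors, 2 lay at or below the 25th percentile on array 4.

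Over the 10 arrays, 23 of the 33 tested genes had a Pearson correlation of at least 0.7 with the mean of the others, led by Cd3e (0.957), Cd69 (0.956), Lat (0.946) and Cd2 (0.941). The correlation was under 0.3 for Prf1 (0.217), Gzmb (0.163), Tbx21 (0.03), Gzma (−0.388) and Eomes (−0.427). These are descriptions over 10 arrays that share their groups, and diabetic array 4 weighs in each. Outside the set, the 8 genes whose values were most like the mean of the tested genes were Cd52 (0.993), Cd79b (0.977), Cytip (0.976), Cd37 (0.965), Cxcr4 (0.964), P2ry10 (0.963), Gpr183 (0.962) and Il7r (0.962). Cd79b, a chain of the B cell receptor, and Cd37, a tetraspanin of B cells, stand among them. Cd52, a small surface glycoprotein of lymphocytes, lay at 4.67, 4.58 and 4.59 at 6 weeks, at 5.93, 5.53 and 4.71 in nondiabetic and at 5.50, 5.38, 5.29 and 6.79 in diabetic mice.

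Further genes of T cell receptor signalling were read from a list of 24, of which 22 were measured and tested. None passed with diabetes (2 at an unadjusted p under 0.05, Vav1 and Cblb) or with age (also 2, Ptpn22 and Ptprc), and 1 passed between diabetic and 6-week mice. That gene was Ptpn22, a phosphatase that restrains receptor signalling, at 2.20, 2.91 and 2.90 at 6 weeks and at 4.12, 3.99, 4.04 and 5.75 in diabetic mice (1.80 ± 0.40, limma adjusted p = 0.0449). The call of Ptpn22 was lost on leaving out any 1 of diabetic arrays 1 to 3, nondiabetic 21-week arrays 1 and 2 or the 6-week arrays, with adjusted p up to 0.181. Ptprc, the gene of CD45 on all white blood cells, had a difference of 1.92 ± 0.46 (limma adjusted p = 0.0674). The median of the list was 0.47 in this comparison, with 21 of 22 above 0, and 0.37 with diabetes. These were 0.31 and 0.12 without diabetic array 4, and without nondiabetic 21-week array 3 the latter was 0.19.

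Of 13 tested genes of T cell identity, from a list of 20, none passed with diabetes (0 at an unadjusted p under 0.05) or with age (2), and Cd96 and Cxcr6 passed between diabetic and 6-week mice. Cxcr6, a chemokine receptor of tissue-resident T cells, lay at 2.67, 2.84 and 2.99 at 6 weeks, at 3.80, 3.60 and 3.12 in nondiabetic and at 3.58, 3.69, 3.98 and 3.59 in diabetic 21-week mice. Diabetic array 4 did not stand out in Cxcr6, and every 21-week array was above the 6-week arrays (0.87 ± 0.17, limma adjusted p = 0.0285). Cd96, an adhesion receptor of T and NK cells, lay at 2.66, 3.04 and 3.17 at 6 weeks and at 3.58, 3.96, 3.75 and 4.24 in diabetic mice (0.92 ± 0.20, limma adjusted p = 0.041). Both calls were lost without diabetic array 2 or 3 or any 6-week array, and that of Cd96 also without diabetic array 4 or nondiabetic 21-week array 2, at adjusted p up to 0.171 for Cd96 and 0.113 for Cxcr6.

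Other NK and cytotoxic genes, 23 tested of 32 listed, had 0 calls in each comparison (limma; 1, 3 and 5 at an unadjusted p under 0.05 with diabetes, with age and in both together). Ctsw, a cathepsin of cytotoxic cells, had the smallest adjusted p among them, 0.0957, with a difference of 0.76 ± 0.21 between diabetic and 6-week mice, and Ccl5, a chemokine released by cytotoxic T cells, differed by 0.70 ± 0.20 (limma adjusted p = 0.121). Targets of interferon gamma, 19 tested of 22 listed, had 0 calls with diabetes (4 at an unadjusted p under 0.05) and with age (5). Between diabetic and 6-week mice 1 passed, Psmb8, an immunoproteasome subunit, at 5.34, 5.41 and 5.27 at 6 weeks, 6.55, 6.21 and 6.20 in nondiabetic and 5.95, 6.64, 5.93 and 6.36 in diabetic 21-week mice (0.88 ± 0.17, limma adjusted p = 0.0311). The call of Psmb8 was lost without diabetic array 2 or 4 or any 6-week array, at adjusted p up to 0.13. The median of the interferon gamma targets was 0.52 in that comparison, with 18 of 20 above 0, and 0.16 with diabetes, or 0.04 without diabetic array 2.

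Lists of markers of other cells that the tissue could hold were read beside the T cell genes. The mean of 13 B cell genes was 3.43, 3.48 and 3.37 at 6 weeks, 4.18, 3.94 and 3.62 in nondiabetic and 4.12, 3.86, 3.78 and 5.26 in diabetic 21-week mice, and 0 of the 13 passed in any comparison (0, 3 and 8 at an unadjusted p under 0.05). Diabetic array 4 was thus the highest in B cell and T cell genes alike. The mean of 9 measured genes of lymph node stroma and high endothelium was 4.48 on that array and 3.81 to 3.84 on the other diabetic arrays, 3.33 to 3.78 in nondiabetic mice of 21 weeks and 3.48 to 3.50 at 6 weeks. This list holds Cr2, also counted among the B cell genes, at 4.03 on array 4 and 2.99 to 3.41 on the other diabetic arrays. Ltb, also in it, lay at 6.38 and 5.02 to 5.23. The mean is therefore no measure of stroma apart from lymphocytes. Glycam1, a ligand of high endothelial venules, lay at 5.54 on diabetic array 4 and at 2.90 to 3.57 on the others of its group. Madcam1, the addressin of such venules, lay at 3.84 on array 4 and at 3.82 to 4.32 on the others, Chst4 at 2.61 and 2.52 to 2.80, and Fut7 at 3.32 and 3.07 to 3.34. Likewise Il7 lay at 2.44 and 2.53 to 2.67, and Tnfsf11 at 2.96 and 2.63 to 2.99. On array 4 Il7 and Chst4 lay below that array's 25th percentile of 2.62. Cxcl13, a chemokine that attracts B cells, was the 1 call of this list: it lay at 5.25, 4.60 and 4.04 in nondiabetic and at 7.10, 7.03, 8.58 and 9.19 in diabetic 21-week mice. Cxcl13 rose with diabetes by 3.35 (limma adjusted p = 0.00482), or 2.94 without array 4, and between 6-week and diabetic mice by 2.83 (limma adjusted p = 0.014), a call lost without diabetic array 3 or 6-week array 2 or 3. The mean of 6 thymocyte genes was 3.31 on diabetic array 4 and 2.93 to 3.07 on the other diabetic arrays. Themis, also counted among the receptor signalling genes, differed most, at 4.26 and 3.04 to 3.34. Ptcra lay at 4.72 and 4.35 to 4.45, and Dntt at 2.85 and 2.23 to 2.74. Rag2 (2.37 and 1.76 to 2.46), Cd1d1 (3.17 and 2.95 to 3.54) and Arpp21 (2.52 and 2.46 to 2.67) lay within the range of the others. Of these, Rag2 lay below the dim mark on every diabetic array, and Arpp21 on all of them except array 3. The 17 macrophage and dendritic cell genes had means of 4.81 to 5.12 in diabetic, 4.36 to 4.57 in nondiabetic 21-week and 4.32 to 4.68 in 6-week mice, and there array 4, at 4.81, was the lowest diabetic array. Of these, Cd68 (1.17, limma adjusted p = 0.0205) and Mrc1 (1.53, limma adjusted p = 0.0397) were called higher with diabetes. The call of Cd68 was lost without nondiabetic 21-week array 1 or 3, and that of Mrc1 without diabetic array 1, 3 or 4, any nondiabetic 21-week array or 6-week array 3. The mean of 10 neutrophil genes was 3.32 on diabetic array 4 and 2.74 to 2.83 on the other diabetic arrays, and that of 10 plasma cell genes was 6.61 and 5.44 to 5.94. The part of these cells or of lymph node tissue in the T cell values was not tested.

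**Figure D4:**
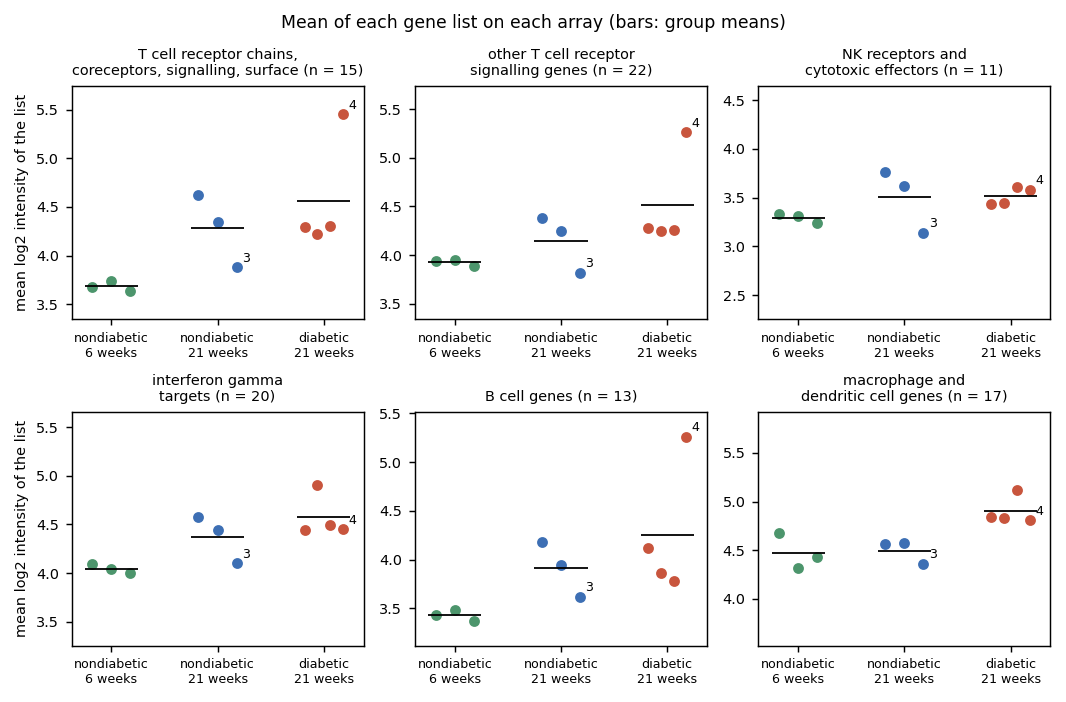
Each point is the mean log2 intensity of a gene list on 1 array, with the group mean as a bar and the number of measured genes in each panel title; the digits mark diabetic array 4 and nondiabetic 21-week array 3. Array 4 is highest in the T cell, receptor signalling and B cell panels, at 5.45, 5.26 and 5.26, and lies among the other diabetic arrays for the NK and cytotoxic genes as 1 list, at 3.58.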

How the data were processed

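RNA of 10 samples was measured on Affymetrix arrays. The values deposited by the authors are on the log2 scale, 1 per probe set and array. Per the submitters' processing notes they come from RMA, run with Affymetrix Power Tools, and neither version is given in the sources used. Probe sets with 1 gene symbol (23521 of 41345) were kept; 1814 had several symbols and 16010 were unnamed here. The brightest stood for its gene. Genes had to exceed the array's 25th percentile on at least 3 arrays. All arrays entered 1 limma fit (3.58.1, R 4.3.3; lmFit and eBayes) with a mean per group; tests were two-sided, with Benjamini-Hochberg adjustment over 18826 genes and a threshold of 0.05. The number of arrays limits the precision.

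The genes and lists were chosen with earlier results of these data known. Values by array are given for the CD3 chains, coreceptors, effectors, regulatory genes, and for those of the set that were called or had an outlying array; of other lists up to 3 genes with the smallest p per comparison are named. Further values by array fall outside this rule and were chosen after being seen. They are those of Lat, Cd69, Cd2, Klrb1c, Klrk1, Ncr1, Eomes, Tigit, Cd52, Glycam1, Madcam1, Chst4, Fut7, Il7, Tnfsf11, Ltb and Cr2. Those of the thymocyte and neutrophil genes, of Fkbp11 and of the called genes of other lists belong there too. The 8 genes most like the mean of the tested genes were ranked by Pearson correlation. Alternatives were the filter, probe set choice, scaling, variance prior, array weights, thresholds, samples fitted, replicate block and each array left out. Leaving out diabetic array 4 and nondiabetic 21-week array 3 together was chosen after seeing the data.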

Additional observations from a re-analysis of the deposited data

Results flagged for a closer look

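In the diabetic group of 4 arrays, the highest or lowest array lay far from the rest for 8 of 35 values checked (34 genes and their mean), by a test that chance meets in about 1 of 20 groups; the genes are not independent of each other. Diabetic array 4 was the high one for Cd3g (6.22, next 5.33), Cd5 (5.14, next 4.21), Ctla4 (4.65, next 3.36), Foxp3 (4.30, next 3.56), Gimap3 (5.21, next 4.60) and Cd27 (4.94, next 3.88). The mean of the 34 genes was 4.62 on that array, next 3.98. Fasl was low on diabetic array 2, at 3.06, with the next at 3.28. All values are log2 intensities.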

How the results depend on the processing

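Over the 20 alternatives the median log2 difference of the set stayed positive with age (0.20 to 0.53) and between diabetic and 6-week mice (0.24 to 0.51), and with diabetes it ran from −0.16 to 0.24. The value of −0.16 came from leaving out both arrays that stood apart. Many alternatives could not move these medians: the filter, the variance prior, fitting only the groups compared, and leaving out an array of the third group. Nor could the probe set choice, since all 34 genes had 1 probe set. Calls among the set with diabetes were 0 under every alternative except 1 without both arrays that stood apart. With age they were 0 except 1 with array weights, 3 without both arrays and 0 to 1 with each array left out. Between diabetic and 6-week mice they were 1, but 3 with median centring, 2 with only the groups compared, 4 with array weights, 0 at an adjusted p under 0.01, 5 without both arrays and 0 to 3 with each array left out. The genes called overall were, with diabetes, 271, against 161 with only the groups compared, 69 at an adjusted p under 0.01, 148 at a 2-fold minimum, 175 without both arrays and 84 to 268 with each array left out. With age they were 5, against 0 with only the groups compared, 12 with a trended and robust prior, 18 with array weights, 3 at an adjusted p under 0.01, 39 without both arrays and 1 to 10 with each array left out. Between diabetic and 6-week mice they were 272, against 672 with array weights, 58 at an adjusted p under 0.01, 128 at a 2-fold minimum, 505 without both arrays and 48 to 393 with each array left out. Quantile normalization moved the split of higher and lower calls from 207 and 64 to 130 and 100 with diabetes, and from 170 and 102 to 157 and 162 between diabetic and 6-week mice. The causes were not tested.

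The replicate numbers did not pair the arrays: over 9 same-numbered pairs the correlation of deviations from the group means was −0.118 to 0.066. With the replicate block the set had 2 calls between diabetic and 6-week mice, Cd69 (1.41, limma adjusted p = 0.0219) besides Cd3g; diabetic array 4 has a number of its own, so the block removes it from the comparison.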

Other observations

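Genes of helper subsets and exhaustion, 18 tested of 20 listed, had 0 calls in each comparison by limma (2, 2 and 5 at an unadjusted p under 0.05 with diabetes, with age and between diabetic and 6-week mice). Tigit, an inhibitory receptor of T and NK cells, lay at 2.53, 2.68 and 2.22 at 6 weeks, at 2.92, 3.13 and 2.45 in nondiabetic and at 3.05, 3.88, 3.05 and 4.17 in diabetic 21-week mice. Its diabetic arrays were above the 6-week arrays (1.06 ± 0.27, limma adjusted p = 0.0785). Maf, a transcription factor of helper T cells, differed by 0.76 ± 0.23 in the same comparison (limma adjusted p = 0.146). Bcl6, a transcription factor of follicular helper T cells and germinal centre B cells, went the other way, at 5.81 ± 0.22 (SD, n = 4) in diabetic and 6.38 ± 0.13 (n = 3) in 6-week mice (−0.57 ± 0.17, limma adjusted p = 0.125).

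Plasma cell genes, 10 tested, had 2 calls higher and 1 lower between diabetic and 6-week mice. Jchain, which joins secreted IgA and IgM, lay at 6.04, 4.99 and 4.69 at 6 weeks and at 7.25, 7.54, 9.16 and 9.72 in diabetic mice (3.18, limma adjusted p = 0.0145), and Ighm at 8.29, 8.38 and 7.97 and at 10.13, 9.44, 10.54 and 12.09 (2.34, limma adjusted p = 0.0284, or 1.83 without diabetic array 4). Both calls were lost without diabetic array 3 or without 6-week array 2 or 3, and that of Ighm without 6-week array 1 too, at adjusted p up to 0.119. Derl3, a gene of the removal of misfolded proteins from the endoplasmic reticulum for degradation, fell by 0.87 on the log2 scale (limma adjusted p = 0.00713), from 8.78, 8.72 and 8.63 to 8.10, 7.71, 7.84 and 7.70. Thus Derl3 was highest at 6 weeks, where Jchain and Ighm were lowest. Which cells carried it was not tested.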
